A study of Mus musculus with 18 samples.

Results

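*Ldb1* and *Ldb2*, 3 LIM-only genes (*Lmo1*, *Lmo2* and *Lmo4*) and 5 LIM-homeodomain genes (*Lhx2*, *Lhx6*, *Lhx8*, *Lhx9* and *Isl1*) were followed in mouse mesenchymal progenitor cells (MPCs) with and without *Atrx*. These 10 genes were taken by Entrez identifier from the 24100 genes listed in each count table. They were chosen by the level of *Ldb2* RNA, which was almost absent from both *Atrx* knockout (KO) clones, so its values in the clones against wild type (WT) are given as a description, without a test. The comparison asks what its paralog and the LIM-domain partners did in the same libraries.

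LDB1 and LDB2 are adaptor proteins without DNA-binding activity of their own. They dimerise and bind the LIM domains of LIM-homeodomain and LIM-only (LMO) proteins, and in this way join transcription factors on DNA into larger complexes and bring distant enhancers to promoters. LIM-homeodomain proteins bind DNA themselves, whereas LMO proteins lack a DNA-binding domain and reach DNA through partners such as the GATA and basic helix-loop-helix factors. Single-stranded DNA-binding proteins of the SSBP family stabilise the LDB adaptors, and the ubiquitin ligase RLIM marks them for degradation.

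RNA was sequenced from C3H/10T1/2 cells, a mouse line with mesenchymal progenitor properties, in 9 libraries of polyA-selected RNA and 9 of rRNA-depleted RNA. Each kind of library held 3 groups of 3: an isogenic *Atrx* WT line that received the Cas9 vector without a guide, the *Atrx* KO clone G7 made with sg5, and the *Atrx* KO clone B10 made with sg6. Each group was a single line or clone, so n = 3 counts libraries of that line, the sources do not state that they came from separate cultures, and the effect of *Atrx* loss cannot be told apart from other differences between these 3 lines. Both clones were compared with the same WT libraries.

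Library totals ran from 27544833 to 235346363 counts for polyA, with all 3 sg5 libraries above the other libraries, and from 20135336 to 33187136 counts for rRNA depletion. Most of the polyA totals are above the average read number given in the study's methods, for a reason not given in the sources used here, so the counting intervals below hold only if each count was a separate read. *Atrx* itself was lower in all 12 KO libraries than in any WT library of the same kind, with log2 fold changes between −1.39 and −1.20 over both clones and both kinds of library (edgeR quasi-likelihood test, highest adjusted *p* = 0.00227). Of 12 markers of mesenchymal progenitors, 11 (all but *Nt5e*) reached 1 CPM (counts scaled to library size) in at least 1 polyA library, led by *Col1a1*, *Col1a2* and *Vim*. The lines did not carry these markers alike. *Thy1* had 23, 96 and 49 polyA counts in WT, 39, 70 and 60 in sg5 and 10406, 7986 and 6717 in sg6. Levels below are CPM scaled by edgeR's TMM factors. A gene was called where its log2 fold change lay beyond 1 with an adjusted *p* below 0.05 over all features tested.

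In WT cells *Ldb2* was one of the better expressed members. It measured 26.3, 36.2 and 63.7 CPM in the 3 WT polyA libraries. The sg5 libraries held 1, 5 and 12 *Ldb2* counts in all, and the sg6 libraries 0, 3 and 4. The counts of both clones were thus far below those of every WT library, which held 752, 3164 and 2863. Pooled over libraries, the WT level was 1286 times that of sg5 (exact 95% interval 813 to 2171, counting error only) and 1120 times that of sg6 (543 to 2786).

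The rRNA-depleted libraries gave the same picture of *Ldb2* from another library preparation and another counting method. WT libraries held 103, 107 and 224 counts, sg5 libraries held 0 in all 3, and sg6 libraries held 0, 0 and 1. With 3 counts over the group as the limit that a count of 0 allows, WT *Ldb2* was at least 118-fold higher than sg5, and the single count in sg6 gave a ratio of 368 with a counting interval of 65.8 to 14580. Because these are bulk samples, fewer cells with *Ldb2* RNA and less *Ldb2* RNA per cell cannot be told apart. *Ldb2* lies on the minus strand of chromosome 5 from 44472132 to 44799680 (GRCm38), its longest annotated transcript has 9 exons, and no 31-base word of its transcripts occurs in those of another gene.

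**Figure D1:**
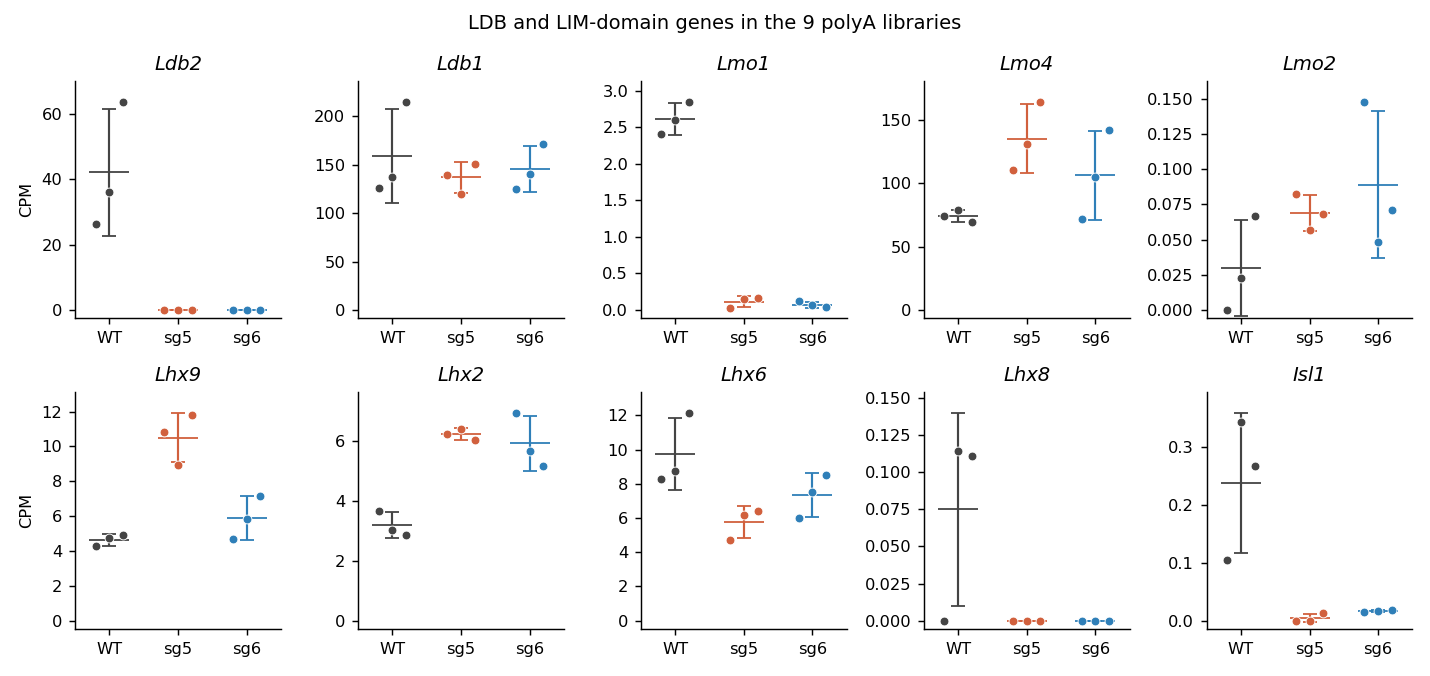
CPM of the 10 genes in each of the 9 polyA libraries (points), with the mean (long dash) and SD (bars) of the 3 libraries of each line; each panel has its own linear axis. *Ldb2*, *Lmo1*, *Lhx8* and *Isl1* lie at or near 0 in both clones, *Ldb1* overlaps between all 3 lines, and *Lhx9* and *Lhx2* lie above WT in every sg5 library.

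*Ldb1*, the paralog with the same adaptor role, was neither higher nor lower in the clones by the test. Its polyA level was 125, 137 and 215 CPM in WT, 139, 120 and 151 in sg5 and 125, 141 and 171 in sg6. The 3 groups overlapped fully, with the single highest library in WT. Against WT the log2 difference was −0.22 in sg5 (95% interval −0.68 to 0.24, adjusted *p* = 0.464) and −0.13 in sg6 (−0.59 to 0.33, adjusted *p* = 0.670). A change of *Ldb1* beyond 1 on the log2 scale thus lies outside both intervals.

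In the rRNA-depleted libraries *Ldb1* measured 83.6, 72.2 and 81.3 CPM in WT, 99.8, 79.5 and 80.5 in sg5 and 89.4, 65.9 and 73.5 in sg6, again with overlapping groups. The log2 fold changes were 0.13 (95% interval −0.21 to 0.47) and −0.05 (−0.39 to 0.29). *Ldb1*, on chromosome 19 from 46031570 to 46045214, overlaps *Pprc1*, annotated on the opposite strand. Of its 31-base words 3.20% occur in other genes, *Pprc1* among them. The sources used here do not state whether the counting used strand.

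Levels of different genes were compared per kb of annotated exon. In WT polyA libraries *Ldb1* was at 34.6 ± 10.6 CPM per kb (SD, n = 3) and *Ldb2* at 12.6 ± 5.81. *Ldb2* made up 26.0 ± 3.34% of their sum, with 22.4% in the lowest WT library and 29.0% in the highest. The sum of both was 47.2 ± 16.3 CPM per kb in WT, 29.7 ± 3.40 in sg5 and 31.6 ± 5.08 in sg6. The WT libraries spread from 35.1 to 65.8, and the highest sg6 library, at 37.2, was above the lowest WT library.

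The share of *Ldb2* was smaller in rRNA-depleted RNA, at 7.56 ± 1.46% of the sum in WT. The sum there was 18.6 ± 1.52 CPM per kb in WT, 18.8 ± 2.48 in sg5 and 16.6 ± 2.60 in sg6, with the 3 lines overlapping. In the clones the sum was almost wholly *Ldb1*.

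**Figure D2:**
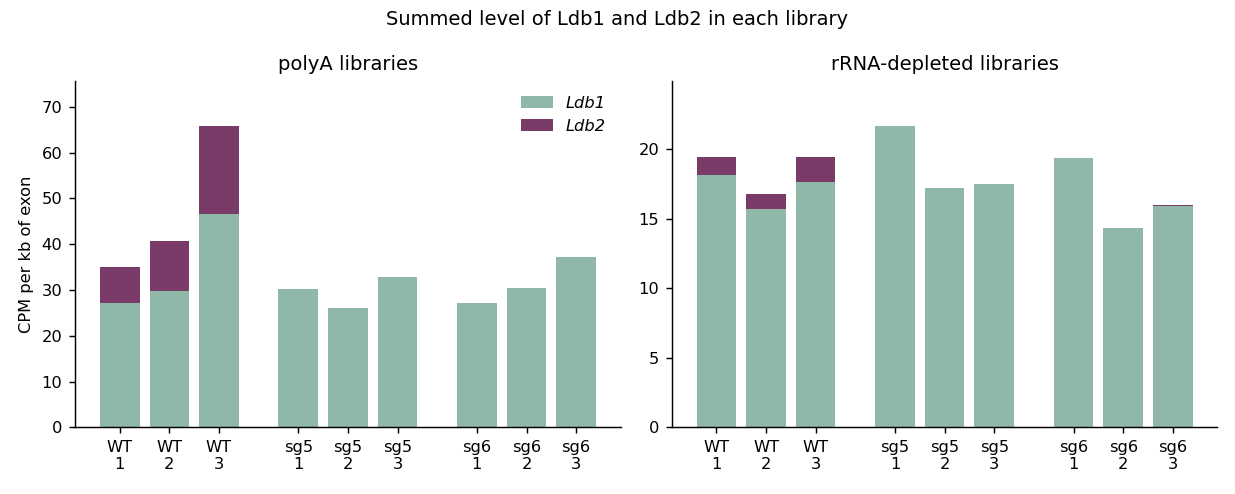
CPM per kb of exon of *Ldb1* (green) and *Ldb2* (purple), stacked, in each library of the 3 lines, for polyA (left) and rRNA-depleted RNA (right; the axes differ). *Ldb2* makes up 26.0% of the polyA sum and 7.56% of the rRNA-depleted sum in WT on average, and is too low to see in the clones apart from a trace in the third sg6 library of rRNA-depleted RNA.

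Of the 9 members beside *Ldb2*, 6 had enough counts to be tested in each kind of library, and *Isl1*, *Lhx8* and *Lmo2* had too few. In the polyA libraries 1 member was called higher (*Lhx9*) and 1 lower (*Lmo1*) in sg5, where 3.18% of all genes tested were called higher and 6.96% lower. In sg6, 0 were called higher and 1 lower (*Lmo1*), against 3.64% and 7.54% of all genes. The 0 comes from edgeR, and DESeq2 also gave 0; 3 of the 6 had an unadjusted *p* below 0.05 in either direction by edgeR (41.7% of all genes) and 4 by DESeq2. By adjusted *p* alone, 5 of the 6 passed in sg5 (27.0% of all genes) and 2 in sg6 (30.7%). In the rRNA-depleted libraries edgeR called *Lhx9* higher and *Lmo1* lower in sg5 (3.04% and 4.31% of all genes) and *Lmo1* lower in sg6 (2.16% of all genes higher, 3.59% lower). DESeq2 called *Lhx9* there in sg5 and 0 members in sg6, where 3 of the 6 had an unadjusted *p* below 0.05 by either tool (24.3% of all genes by edgeR). By adjusted *p* alone 2 passed in sg5 (10.7%) and 1 in sg6 (7.58%). Nothing is read from these shares, since the genes were picked with the same comparison in view.

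*Lmo1* was the LIM-only member that fell in both clones. LMO1 is a nuclear LIM-only protein known from developing brain and from leukaemia. Its polyA level was 2.41, 2.60 and 2.85 CPM in WT, 0.0253, 0.144 and 0.167 in sg5, and 0.118, 0.0643 and 0.0355 in sg6. The highest KO library was more than 10 times below the lowest WT library. The log2 fold change was −4.51 (SE 0.48, adjusted *p* = 0.000206) in sg5 and −5.11 (SE 0.57, adjusted *p* = 0.000227) in sg6. In both kinds of library the WT libraries, where *Lmo1* was high, carried it past the filter on low counts. A gene kept in this way could hardly come out higher in the clones, so its *p* values describe the fall and are no separate support for it.

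In rRNA-depleted RNA, WT libraries held 72, 107 and 170 counts of *Lmo1*, sg5 libraries 16, 0 and 8, and sg6 libraries 0, 0 and 10. Again the KO and WT libraries did not overlap. The fits gave −3.56 (SE 0.78, adjusted *p* = 0.0194) and −4.78 (SE 0.87, adjusted *p* = 0.00714). With DESeq2 the adjusted *p* values were 0.317 and 0.166, and without the third sg5 or the third WT library edgeR gave sg5 an adjusted *p* of 0.0546 or 0.0841. The difference between the clones was 0.60 (95% interval −0.88 to 2.08) on the log2 scale in polyA RNA and was not called.

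*Lmo1* lies on the minus strand of chromosome 7 from 109138572 to 109175207, with the antisense gene *Gm44781* overlapping it. Since it is the member that fell in both clones in both kinds of library, its promoter is shown. The 250 bases before the start of *Lmo1* in RefSeq (GRCm38.p6, chr7:109175208-109175457, minus strand) are printed 5′ to 3′, with capitals marking TAATTA, a homeodomain core motif.
*Lmo1*: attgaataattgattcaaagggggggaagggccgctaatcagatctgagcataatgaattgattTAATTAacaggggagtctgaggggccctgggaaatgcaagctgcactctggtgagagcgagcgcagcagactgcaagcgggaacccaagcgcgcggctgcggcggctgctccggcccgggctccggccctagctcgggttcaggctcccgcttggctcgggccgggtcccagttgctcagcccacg
Windows of 300 bases around the start (250 before and 50 after) were searched on both strands for TAATTA, for the E-box CAGCTG and for GATAA, the core bound by GATA factors; none of the matches marked in the printed sequences overlaps another. TAATTA occurs in 5.31% of the first windows of 27025 genes, CAGCTG in 16.1% and GATAA in 25.8%. Among the 8 members with a window, *Lmo1* was the one with TAATTA, *Lhx6* and *Isl1* held CAGCTG, and *Lhx8*, *Lhx9* and *Isl1* held GATAA. The *Lmo1* window held 29 CpG dinucleotides, where the median over all genes was 7; *Ldb1* held 41, *Lmo4* 52, *Lhx2* 34, *Isl1* 37, *Lhx6* 16, *Lhx9* 6 and *Lhx8* 4.

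*Lmo4*, the most abundant LIM-only member, was not called in either clone. LMO4 is a widely expressed LIM-only protein that binds LDB1. Its polyA level was 74.3, 79.1 and 69.4 CPM in WT, 110, 131 and 164 in sg5 and 71.7, 105 and 142 in sg6. All sg5 libraries were above WT, while the first sg6 library lay within the WT range. This gave a log2 fold change of 0.86 in sg5 (SE 0.23, adjusted *p* = 0.0217) and 0.52 in sg6 (SE 0.23, adjusted *p* = 0.118), short of the fold threshold in both. In rRNA-depleted RNA the 3 groups overlapped and the values were 0.02 and −0.23, so the polyA difference was not seen there. 

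Per kb of exon, the WT polyA levels fell in the order *Ldb1* (34.6 ± 10.6 CPM per kb), *Lmo4* (21.0 ± 1.37), *Ldb2* (12.6 ± 5.81), *Lhx6* (2.03 ± 0.441), *Lmo1* (1.69 ± 0.141), *Lhx2* (0.724 ± 0.0971) and *Lhx9* (0.489 ± 0.0357), with *Isl1*, *Lhx8* and *Lmo2* last at or below 0.0602 on average. Single libraries of *Lhx6* and *Lmo1* overlapped, as did those of the last 3, and the other neighbours in this order did not. In WT rRNA-depleted RNA *Lmo4* (17.8 ± 2.24 CPM per kb) and *Ldb1* (17.2 ± 1.31) overlapped, and *Lmo1* (2.44 ± 0.489) lay above *Ldb2* (1.41 ± 0.344). The LIM-only gene that was nearly lost from the clones was thus a lowly expressed one beside *Lmo4*.

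*Lmo2*, a LIM-only partner of TAL1 and GATA factors in blood and endothelium, was near the detection limit. The polyA libraries held 0, 2 and 3 counts in WT, 13, 13 and 11 in sg5 and 10, 3 and 4 in sg6, and the rRNA-depleted libraries held at most 4. The pooled WT level was 0.461 of that in sg5 (exact 95% interval 0.142 to 1.18) and 0.340 of that in sg6 (0.0981 to 0.960). *Lmo2* was left out of the tests by the filter on low counts.

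*Lhx9* was the LIM-homeodomain member called higher, in sg5 in both kinds of library and in sg6 in neither. LHX9 is a LIM-homeodomain factor with roles in gonad, limb and brain development. Its polyA level was 4.26, 4.75 and 4.91 CPM in WT, 10.8, 8.95 and 11.8 in sg5, and 4.66, 5.83 and 7.17 in sg6. All sg5 libraries were above all others, and the lowest sg6 library lay within the WT range. The log2 fold change was 1.18 (SE 0.18, adjusted *p* = 0.00142) in sg5 and 0.34 (SE 0.18, adjusted *p* = 0.183) in sg6. Tested for a change larger than 1 on the log2 scale, the sg5 value had an adjusted *p* of 0.725.

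The rRNA-depleted libraries gave *Lhx9* 1.51, 1.38 and 1.60 CPM in WT, 6.03, 4.66 and 5.49 in sg5 and 2.73, 2.08 and 3.11 in sg6. There the 3 lines did not overlap, with sg6 between WT and sg5. The log2 fold change was 1.84 (SE 0.26, adjusted *p* = 0.000806) in sg5 and 0.81 (SE 0.26, adjusted *p* = 0.141) in sg6. No *Lhx9* call in sg5 was lost when any single library was left out.

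The difference between the clones was tested directly, and this comparison played no part in picking the genes. *Lhx9* was 0.84 higher in sg5 than in sg6 on the log2 scale in polyA RNA (95% interval 0.44 to 1.23, adjusted *p* = 0.0269; sg5 higher in 3 of 3 libraries) and 1.03 higher in rRNA-depleted RNA (0.50 to 1.57, adjusted *p* = 0.127). In edgeR without a replicate block neither value passed both parts of the threshold. Leaving out single libraries gave adjusted *p* values of 0.0213 to 0.106 in polyA RNA, above 0.05 without the first or the third sg5 library, the first or the second sg6 library, or the second WT library. Same-numbered sg5 and sg6 libraries correlated over 0.1 in their deviations from the group means, and no label gives them as pairs. In rRNA-depleted RNA the third sg5 library correlated more with the second sg6 library (0.555) than with the third (0.174). With the number as a block the difference was 0.85 (adjusted *p* = 0.00944) in polyA RNA and 1.04 (adjusted *p* = 0.0412) in rRNA-depleted RNA, where *Lhx9* was then called. In edgeR that call depended on the block. Over the 6 tested members, 0 were called in either direction between the clones in polyA RNA (2.61% of all genes) and 0 in rRNA-depleted RNA (1.48%) by edgeR; in each kind of library 1, *Lhx9*, had an unadjusted *p* below 0.05 (17.0% and 13.5% of all genes). By adjusted *p* alone *Lhx9* passed in polyA RNA (4.79%) and no member in rRNA-depleted RNA (1.57%). DESeq2 gave 0 in polyA RNA and 1, *Lhx9*, in rRNA-depleted RNA.

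Since *Lhx9* is the member called higher in sg5 in both kinds of library, the 250 bases before its start in RefSeq (GRCm38.p6, chr1:138842445-138842694, minus strand) are printed with capitals marking the match to GATAA on the opposite strand. This start lies inside the gene as GENCODE annotates it, on the minus strand of chromosome 1 from 138825186 to 138848577.
*Lhx9*: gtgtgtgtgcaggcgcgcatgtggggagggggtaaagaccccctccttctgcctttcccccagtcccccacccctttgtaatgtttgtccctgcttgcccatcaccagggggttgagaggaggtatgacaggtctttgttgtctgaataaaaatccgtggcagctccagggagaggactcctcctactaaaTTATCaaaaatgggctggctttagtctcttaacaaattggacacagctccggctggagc
The printed *Lhx9* bases hold 4 CpG dinucleotides and those of *Lmo1* 17.

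*Lhx2* levels lay above WT in both clones in polyA RNA, close to the fold threshold but short of it. LHX2 is a LIM-homeodomain factor of forebrain, eye, limb and hair follicle stem cells. Its polyA level was 3.67, 3.01 and 2.87 CPM in WT, 6.23, 6.40 and 6.02 in sg5 and 6.94, 5.64 and 5.15 in sg6. All 6 KO libraries lay above the WT range. Log2 fold changes were 0.97 (SE 0.15, adjusted *p* = 0.00190) in sg5 and 0.90 (SE 0.16, adjusted *p* = 0.00245) in sg6. Both lie just inside the fold threshold of 1, and without the first WT library they were 1.08 and 1.01 and were called.

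In rRNA-depleted RNA the *Lhx2* values were 1.14 and 1.13 with adjusted *p* values of 0.169 and 0.231, from 24 to 66 counts a library. The first sg5 library, at 0.961 CPM, lay within the WT range of 0.642 to 1.26, and without it the sg5 value was 1.53 with an adjusted *p* of 0.0299.

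*Lhx6*, a LIM-homeodomain factor of cortical interneurons and tooth mesenchyme, had a lower mean level in both clones than in WT. Without a replicate block it was called in neither. Its polyA level was 8.28, 8.76 and 12.2 CPM in WT, 4.70, 6.15 and 6.42 in sg5 and 5.98, 7.50 and 8.52 in sg6. The sg5 libraries were all below WT, and the third sg6 library was above the lowest WT library. The log2 fold change was −0.76 (SE 0.20, adjusted *p* = 0.0215) in sg5 and −0.41 (SE 0.20, adjusted *p* = 0.156) in sg6, and in rRNA-depleted RNA −1.25 and −0.68, with adjusted *p* values of 0.112 and 0.523.

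*Isl1* and *Lhx8* were measured by few counts in WT and almost none in the clones. ISL1 is a LIM-homeodomain factor of motor neurons and heart progenitors, and LHX8 one of forebrain cholinergic neurons and oocytes. *Isl1* had 3, 30 and 12 polyA counts in WT, 0, 0 and 2 in sg5 and 1, 1 and 1 in sg6, and in rRNA-depleted RNA 7, 5 and 3 in WT and 0 in all 6 KO libraries. The pooled polyA ratio of WT to clone was 76.8 (exact 95% interval 20.1 to 654) for sg5 and 17.3 (5.57 to 87.2) for sg6. With 3 counts over the group as the limit in rRNA-depleted RNA, WT *Isl1* was at least 4.06-fold higher than sg5 and 4.24-fold higher than sg6.

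*Isl1* failed the filter on low counts in the full set of libraries. Without the filter edgeR gave it a polyA log2 fold change of −5.69 (adjusted *p* = 0.000553) in sg5 and −3.89 (adjusted *p* = 0.00523) in sg6. *Lhx8* had 0, 10 and 5 polyA counts in WT and 0 in all 6 KO libraries. Pooled, WT was at least 17.1-fold higher than sg5 and 5.78-fold higher than sg6. The first WT library also held 0 *Lhx8* counts, so single libraries overlapped, and rRNA-depleted RNA held 0 *Lhx8* counts in all 9 libraries.

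**Figure D3:**
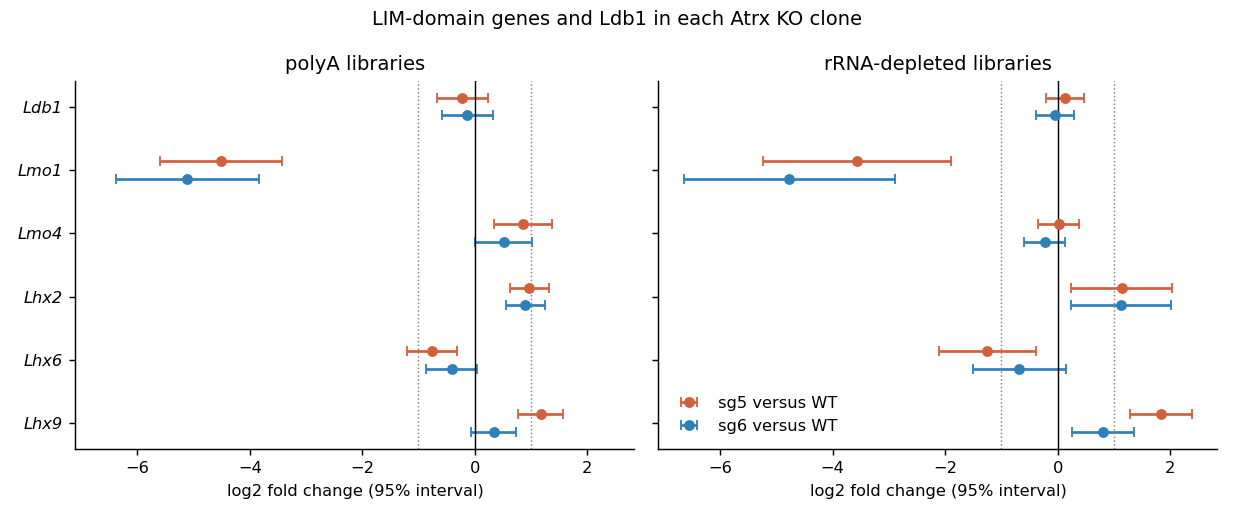
Log2 fold change against WT (points) with its 95% interval (bars) for the 6 tested members beside *Ldb2*, in sg5 and sg6, from the polyA (left) and rRNA-depleted libraries (right); dotted lines mark the fold threshold of 1 in both directions. *Lmo1* lies at −5.11 to −3.56 in all 4 comparisons, *Ldb1* crosses 0 in all 4, and *Lhx9* lies further from 0 in sg5 than in sg6.

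**Figure D4:**
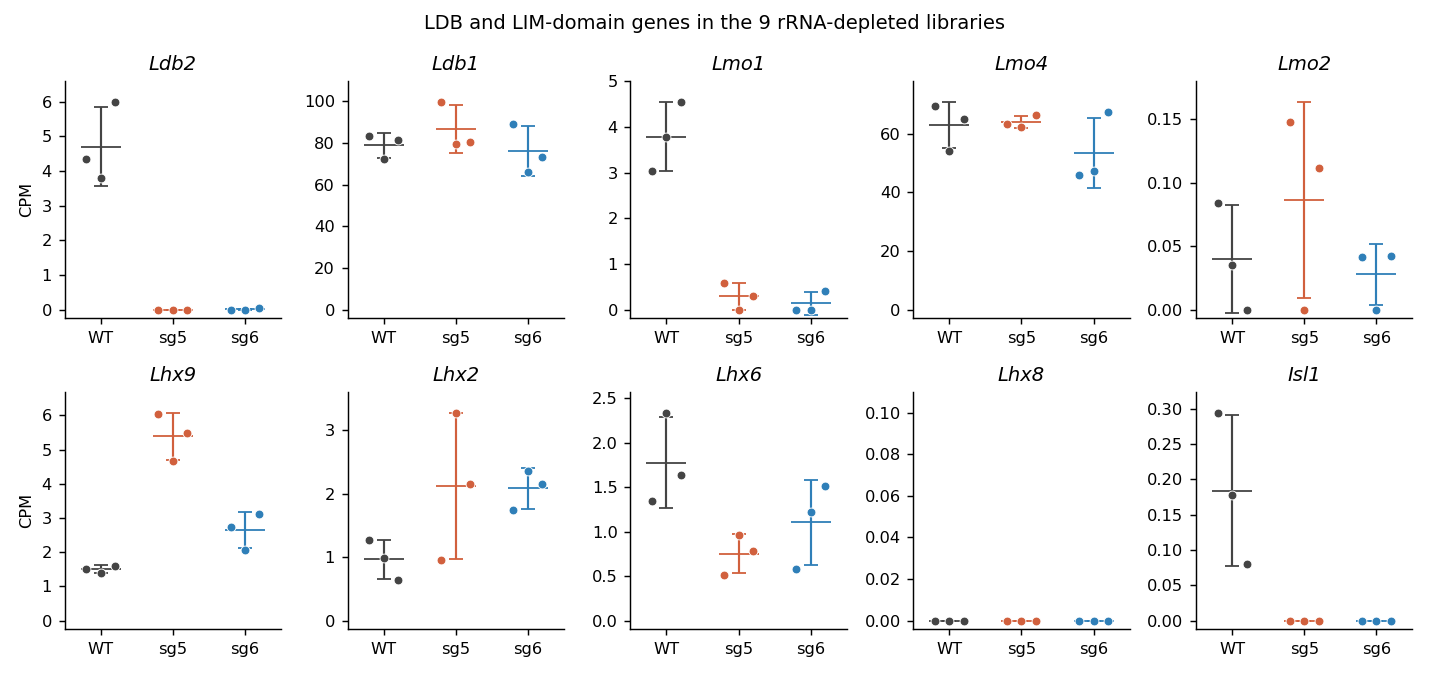
CPM of the same 10 genes in each of the 9 rRNA-depleted libraries (points), with the mean (long dash) and SD (bars) of each line; each panel has its own linear axis. *Ldb2*, *Lmo1* and *Isl1* are low or at 0 in the clones, *Lhx9* shows 3 levels without overlap, and *Lhx8* is at 0 in all libraries.

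Among all 16 mouse LIM-homeodomain and LMO genes listed, 8 were tested in the polyA libraries and *Lmo1* was the gene called in both clones. Over all genes tested, 2.18% were called higher and 5.48% lower in both clones. In rRNA-depleted RNA 6 were tested, and edgeR called 1 lower in each clone, *Lmo1*, where 2.62% of all genes were lower in both. DESeq2 called 0 lower there in either clone. The median log2 fold change of the 8 was 0.41 in sg5 and 0.37 in sg6, and that of all genes tested was −0.00 and −0.01. The genes tested beside the members were *Isl2*, *Lmx1a* and *Lhx5*, and none of these 3 was called in a clone. Of all genes, 3.18% were called higher and 6.96% lower in sg5, and 3.64% and 7.54% in sg6. *Lmx1b* had the lowest counts of the list, with a single polyA library above 0.

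Cofactors of LDB complexes were compared next. Of 16 cofactor genes 13 were tested in the polyA libraries, and 0 were called in either clone by edgeR, where 3.18% of all genes were called higher and 6.96% lower in sg5, and 3.64% and 7.54% in sg6. DESeq2 also called 0, and 3 of the 13 had an unadjusted *p* below 0.05 by edgeR in each clone (38.9% of all genes in sg5 and 41.7% in sg6). The median log2 fold change was −0.09 in both. *Ssbp3*, which encodes an SSBP adaptor-stabilising protein, was at −0.09 in sg5 and −0.19 in sg6, and *Rlim* at 0.04 and −0.04. *Ssbp2*, of the same family, was at −0.42 in sg5 (adjusted *p* = 0.110) and −0.37 in sg6 (adjusted *p* = 0.152), and *Ssbp4* at 0.12 and −0.09. *Tcf4*, a basic helix-loop-helix partner, was at 0.49 in sg5 (adjusted *p* = 0.0155) and 0.30 in sg6 (adjusted *p* = 0.0943). *Tcf12*, another such partner, was at −0.16 in sg5 (adjusted *p* = 0.131) and −0.23 in sg6 (adjusted *p* = 0.0384). *Gata3*, a zinc-finger partner of LMO proteins, was at 0.20 in sg5 and −0.50 in sg6 (adjusted *p* = 0.0420), and the clones differed by 0.70 (adjusted *p* = 0.0387; 0.0199 to 0.160 when single libraries were left out).

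LIM domains also occur in proteins of the actin cytoskeleton, most of which do not bind LDB adaptors. Of 45 such genes 41 were tested in the polyA libraries; 3 rose in both clones and 2 fell in both, where 2.18% of all genes were called higher and 5.48% lower in both clones. *Crip2*, a cysteine-rich LIM protein, rose by 2.13 in sg5 and 2.52 in sg6 (adjusted *p* = 4.01e-06 and 1.47e-06). *Fhl1*, a muscle protein made of LIM repeats, rose in both clones, with 1.51 to 2.08 CPM over the WT libraries, 24.5 to 41.7 over sg5 and 41.7 to 47.5 over sg6. *Lims2*, a partner of integrin-linked kinase, rose by 2.97 and 3.55.

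*Csrp2*, a smooth muscle LIM protein, had a log2 fold change of −1.31 in sg5 (adjusted *p* = 0.0138) and −1.82 in sg6 (adjusted *p* = 0.00254). *Prickle1*, a planar polarity protein, was at −2.03 in sg5 and −4.86 in sg6, and the clones differed by 2.83 (adjusted *p* = 0.000558). In rRNA-depleted RNA *Prickle1* was at −1.14 in sg5 (adjusted *p* = 0.188, not called) and −3.24 in sg6 (adjusted *p* = 0.00227). The clones differed there by 2.09, with an adjusted *p* of 0.152, or 0.0146 with the replicate number as a block. *Pdlim1*, an actin-associated PDZ-LIM protein, was called in opposite directions in polyA RNA, at −1.24 in sg5 (adjusted *p* = 0.00758) and 4.30 in sg6 (adjusted *p* = 8.24e-06); without the second WT library the sg5 value was −0.92 and not called. In rRNA-depleted RNA *Pdlim1* was at 4.92 in sg6 (adjusted *p* = 1.2e-05), and its sg5 value of −2.11 (adjusted *p* = 0.112) was not called, from 4, 8 and 5 counts in WT and 1, 0 and 2 in sg5. In rRNA-depleted RNA *Crip2*, *Fhl1* and *Lims2* were called higher in both clones and *Csrp2* lower in both, where 1.35% of all genes were called higher and 2.62% lower; *Csrp2* in sg6 had an adjusted *p* of 0.0662 without the third WT library. The median log2 fold change over the list was 0.09 in sg5 and 0.18 in sg6 in polyA RNA and 0.0558 and 0.18 in rRNA-depleted RNA, where that of all genes tested was 0.0798 and 0.0377.

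The genes beside *Ldb2* on chromosome 5 were examined because the adaptor gene stands alone in a wide interval, with the nearest protein-coding genes on either side, *Tapt1* and *Qdpr*, 246 and 634 kb away. Of 10 neighbours, 5 on each side, 9 had a row in the tables and 5 were tested in the polyA libraries. *Tapt1* was at −0.08 in sg5 and −0.35 in sg6 (adjusted *p* = 0.00516), *Qdpr* at −0.39 and −0.49, *Lap3* at −0.15 and −0.19, and *Med28* at −0.14 and −0.12. None of these 4 was called.

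*Cd38*, which encodes an NAD-consuming surface enzyme and lies 560 kb from *Ldb2*, fell in both clones. Its level was 2.38, 5.14 and 7.87 CPM in WT, 0.455, 0.314 and 0.555 in sg5, and it was 0.355, 0.241 and 0.195 in sg6. All 6 KO libraries lay below the WT range, and the clones overlapped each other. The log2 fold change was −3.55 (SE 0.43, adjusted *p* = 0.000419) in sg5 and −4.27 (SE 0.48, adjusted *p* = 0.000234) in sg6, and −4.57 and −6.08 in rRNA-depleted RNA. Between *Cd38* and *Ldb2* lie *Gm7879*, which has no row, *Fgfbp1*, *Prom1* and *Tapt1*. *Fgfbp1* and *Prom1* had at most 6 counts in any library and were not tested.

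**Figure D5:**
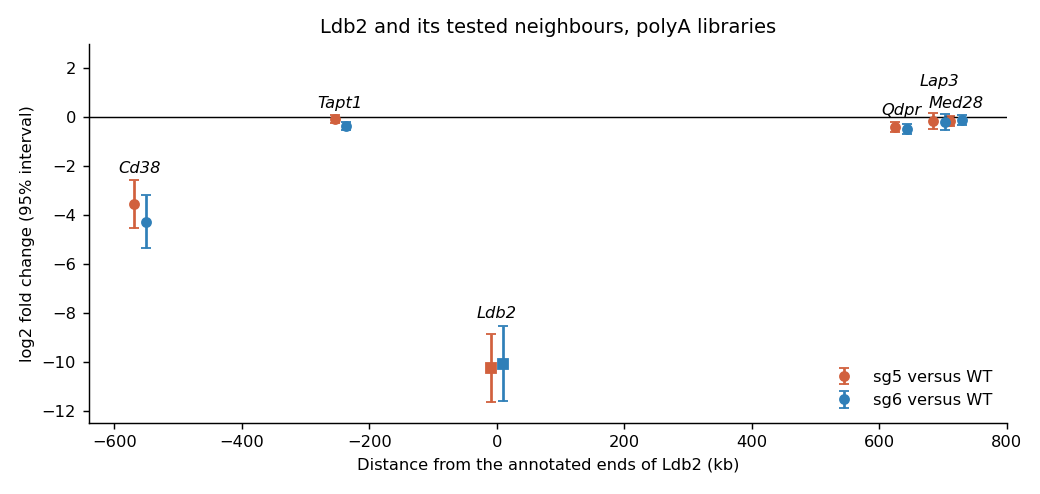
Log2 fold change against WT with its 95% interval in the polyA libraries for *Ldb2* (squares, at 0) and its 5 tested neighbours (circles), by distance in kb from the nearer annotated end of *Ldb2*, with lower coordinates to the left; the clones are drawn slightly apart. *Cd38* lies at −3.55 and −4.27, the other 4 neighbours lie between −0.49 and −0.08, and the fitted values of *Ldb2* are a description.

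The 5 genes whose level followed *Ldb2* most closely were *Gm773*, *Xlr3c*, *C920009B18Rik*, *Eya1* and *Pde3b*. The measure was Pearson's *r* of log2 CPM with *Ldb2* over 9 polyA and over 9 rRNA-depleted libraries, taking the lower of both, among 10789 genes; it lay between 0.982 and 0.992. With 3 WT libraries and 6 KO libraries, such an *r* mainly reflects a gap between WT and clones. *Eya1*, a transcription coactivator of developing organs, had a WT level of 15.8 ± 2.15 CPM in polyA RNA, with 0.0548 ± 0.0120 in sg5 and 0.0379 ± 0.0194 in sg6. *Pde3b*, a cyclic nucleotide phosphodiesterase of fat cells, was at 12.4 ± 2.29, 0.0495 ± 0.0100 and 0.110 ± 0.0596. *Gm773* (25.8 CPM in WT) and *Xlr3c* (23.1) were also at or near 0 in both clones. *C920009B18Rik* was lower in the clones but not lost, at 40.0 ± 2.32 in WT, 20.7 ± 0.446 in sg5 and 20.0 ± 2.00 in sg6. *Xlr3c* has near-identical copies on the X chromosome, so its reads cannot be placed with certainty. With a prior count of 0.5 rather than 2, 3 of the 5 remained among the leading 5.

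*Ldb2* and *Lmo2* are also known from endothelial cells, so the endothelial markers are given beside them. Of 8 markers 3 reached 1 CPM in a polyA library (*Erg*, *Tek* and *Vwf*), and *Cdh5* and *Kdr* stayed below 0.34 CPM throughout. The summed level of the list ran from 22.8 to 37.0 CPM in WT libraries, from 24.1 to 28.5 in those of sg5 and from 15.4 to 20.9 in those of sg6. In polyA RNA *Erg* and *Pecam1* were called lower in both clones and *Tek* higher, with *Pecam1* at only 6, 32 and 20 counts in WT. In rRNA-depleted RNA no endothelial marker was called in both clones. Several LIM-homeodomain genes act in neurons. The neuronal list ran from 62.3 to 82.5 CPM in WT polyA libraries. Its polyA range was 113 to 168 for sg5 and 179 to 224 for sg6, with *Map2* called higher in both clones and *Syt1* lower. *Stmn2*, a gene of this list, held 1554, 3370 and 2744 polyA counts in sg6, and at most 75 in any other polyA library. With rRNA depletion, the sg5 libraries (52.2 to 131 CPM) overlapped the WT range (56.5 to 70.4). Those of sg6 lay above WT, the lowest at 94.4 and the highest at 192. *Syt1* was again called lower in both clones, but *Map2* was not called higher in both. The blood list stayed between 4.73 and 6.49 CPM in all polyA libraries, and the epithelial list was at 2.80 to 5.03 CPM in WT libraries and at most 1.73 in the clones, with *Cdh1* called lower. The part of other cell types in the values of *Ldb2* or of the LIM-domain genes was not tested.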

How the data were processed

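PolyA and rRNA-depleted RNA was measured in 18 libraries of C3H/10T1/2 cells, 3 for each line and kind. Groups and replicate numbers come from the sample labels. For polyA RNA the authors ran Rfastp, Salmon on mm10 transcripts and tximport, and deposited expected counts per gene, without normalization; all were whole numbers, so rounding before the test changed none. The submitters' processing notes name Salmon 0.8.2 and STAR 2.27.10a, and the paper's methods another Salmon version. For rRNA-depleted RNA the authors aligned with STAR and deposited TElocal read counts per gene and transposable element locus. TElocal shares out reads with several alignments. The strand setting is not given in the sources used here. All per-sample columns were used.

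The members, lists and tests were chosen with earlier results of these data known. In edgeR 4.0.16, features were kept by filterByExpr (minimum count 10, minimum total 15), scaled by TMM and tested by quasi-likelihood with all 9 libraries of a kind in 1 fit, leaving the replicate number out. *P* values were adjusted by Benjamini-Hochberg across the 15480 genes (polyA) or 56086 genes and element loci (rRNA-depleted) tested. Background shares are over the 15480 or 13303 genes. The deviations from the group means of same-numbered libraries correlated over 0.1 in every pair of sg5 with sg6 (0.277 to 0.373 in polyA RNA, 0.174 to 0.638 in rRNA-depleted RNA) and of sg6 with WT in rRNA-depleted RNA (0.114 to 0.544). The numbers were taken as pairs there, from the data and not from the labels, and entered only the alternative fits with a replicate block. This cut cannot establish pairs, since some libraries correlated more with another number. In rRNA-depleted RNA the third WT library had 0.252 with the first sg6 library and 0.114 with the third. Counts per library differed between replicates by more than sampling noise, and no 2 libraries were identical. Pooled ratios have exact binomial intervals; a count of 0 allows 3 counts over the group. Intervals and floors cover counting error only. Exon lengths and positions come from GENCODE M21. The genes named were the members, *Atrx*, listed genes called in both clones, 5 neighbours on each side of *Ldb2* and the 5 genes most like it. Cofactor, untested and marker genes given as examples, *Pdlim1* and *Gata3* were chosen after their values were seen.

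In 1 simulation per kind, with 200 features changed 4-fold up or down, edgeR called 187 (sg5) and 177 (sg6) of 200 among 15252 polyA genes, with 4 false calls each, and 79 and 80 among 49270 rRNA-depleted features, with 11 and 8 false calls. Alternatives were DESeq2 1.42.0, other size factors, filters, groups, thresholds, a replicate block, exon lengths and fits that leave out 1 library. Thinned counts and fold changes centred on the chromosome median were added after seeing the data. A planned comparison of the proteins was not run, because no protein sequences were at hand. Figures were drawn with matplotlib 3.10.9.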

Additional observations from a re-analysis of the deposited data

Results flagged for a closer look

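Results are given here because the clones differed by the direct test of sg5 against sg6. In polyA RNA the log2 difference (sg5 minus sg6) was 0.84 for *Lhx9*, the only member among them, 0.70 for *Gata3*, 2.83 for *Prickle1*, −5.54 for *Pdlim1* and −0.50 for *Pdlim7*. In rRNA-depleted RNA it was −7.03 for *Pdlim1* and −0.75 for *Ablim1*. The *Ablim1* value rested on every library, with edgeR adjusted *p* values of 0.0538 to 0.309 when single libraries were left out. In polyA RNA *Ablim1* was at −0.31 (adjusted *p* = 0.184). For *Pdlim7* in polyA RNA the adjusted *p* ran from 0.0254 to 0.181 in such fits, and in rRNA-depleted RNA it was at −0.12 (adjusted *p* = 0.953). *Pdlim1* measured 0.629, 0.766 and 0.356 CPM in the WT polyA libraries, 0.215, 0.284 and 0.253 in sg5, and 12.1, 12.4 and 10.8 in sg6, so that the clones lay on either side of WT.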

How the results depend on the processing

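The count of members called was 1 higher and 1 lower in sg5 and 0 and 1 in sg6 in both kinds of library, and moved with the settings as follows; where a filter or threshold did not set it, the cause was not tested. In polyA RNA, at least 10 counts in every library removed *Lmo1* from the test, leaving 0 lower members in sg5 and in sg6, 0 lower genes of the LIM-homeodomain and LMO list in both clones and 1 of the cytoskeletal list. No filter gave 3 lower members in sg5, 2 in sg6 and 2 of the LIM list in both clones, as *Isl1* and *Lhx8* entered the test. Fitting the 2 groups alone gave 2 lower members in sg5. Testing against a log2 fold change of 1 gave 0 higher members in sg5 and 1 lower cytoskeletal gene in both clones. An adjusted *p* alone gave 3 higher and 2 lower members in sg5, 1 higher in sg6, 1 higher in sg5 than in sg6, 1 higher LIM list gene in both clones, and 9 higher and 4 lower cytoskeletal genes. In rRNA-depleted RNA, at least 10 counts in every library and DESeq2 each gave 0 lower members in sg5 and in sg6 and 0 of the LIM list; DESeq2 gave 1 member higher in sg5 than in sg6. Testing against a log2 fold change of 1 gave there 0 lower members in sg5 and 0 lower genes of the LIM and cytoskeletal lists. The replicate block gave in rRNA-depleted RNA 2 lower members in sg5 (*Lhx6* at −1.24, adjusted *p* = 0.0342, beside *Lmo1*), 1 higher in sg5 than in sg6 (*Lhx9*, 1.04) and 2 lower cytoskeletal genes, and in polyA RNA the counts were equal to those without it. Where the numbers were taken as pairs (sg5 with sg6, and sg6 with WT in rRNA-depleted RNA), the block changed the calls of *Lhx9* and *Prickle1* between the clones in rRNA-depleted RNA and no other call given. In the other comparisons the numbers were not taken as pairs: same-numbered libraries correlated at 0.0257 to 0.264 (sg5 with WT) and 0.0983 to 0.43 (sg6 with WT) in polyA RNA and −0.229 to 0.402 (sg5 with WT) in rRNA-depleted RNA. A library correlated best with its own number in 15 of 18 polyA and 12 of 18 rRNA-depleted comparisons over all 3 groups. With a prior count of 0.5, 3 of the 5 genes most like *Ldb2* remained. With the longest transcript as length, *Ldb2* was 23.5% and 6.67% of the LDB sum in WT.

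Leaving out 1 library at a time gave, in polyA RNA, 1 to 2 higher and 1 to 2 lower members in sg5, 0 to 1 higher and 1 to 2 lower in sg6, 0 to 1 higher and 1 to 2 lower LIM list genes, and 2 to 4 lower cytoskeletal genes; in rRNA-depleted RNA, 1 to 2 higher and 0 to 1 lower members in sg5, 0 to 1 lower LIM list genes and 0 to 1 lower cytoskeletal genes. Signs that turned belonged to values near 0. In polyA RNA these were *Lap3* in sg5 (−0.28 to 0.0442), *Ldb1* in sg5 (−0.36 to 0.0585), in sg6 (−0.27 to 0.15) and between clones (−0.18 to 0.0380), and *Lhx2* between clones (−0.0209 to 0.21). In rRNA-depleted RNA they were *Gata3* in sg5 (−0.47 to 0.14), *Ldb1* in sg6 (−0.16 to 0.0759), *Lhx2* between clones (−0.40 to 0.36) and *Lmo4* in sg5 (−0.0467 to 0.16). Centring on the chromosome median turned *Tapt1* in sg5 (0.0127) and *Lap3* (0.0238) and *Med28* (0.0942) in sg6. In rRNA-depleted RNA the *Lhx2* difference between clones was −0.0292 with at least 10 counts, −0.0267 with genes alone, −0.0376 without a filter, −0.0172 with 2 groups and −0.0408 with the replicate block, and *Lmo4* in sg5 was −0.0305, −0.0415 and −0.0427 with the first 3 of these. Of all other single-gene values under an alternative, 1629 kept direction and call, 22 lost the call, 8 gained it and 9 of *Ldb2* moved by more than the spread between replicates. Depth limits *Isl1*, *Lhx8* and *Lmo2*, which had at most 30 counts in a library.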
